A study of Mus musculus with 6 samples.

Results

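The 9 genes described here make or handle lung surfactant: Sftpa1, Sftpb, Sftpc, Sftpd, Abca3, Lamp3, Napsa, Slc34a2 and Lpcat1. They were found by gene symbol, and all 9 were present among the 31054 features of each library. Their UMIs (unique molecular identifiers, each counting 1 captured RNA molecule) were summed over alveolar type 2 cells, taken as barcodes with at least 2 Lamp3 UMIs and at least 1 Slc34a2 UMI. The same 9 genes were then read as background in 18 other gated cell types.

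The libraries came from dissociated lungs of C57BL/6 male mice aged 21 months, with 1 library per mouse and 3 mice in each of 2 groups. The p16-DTR mice were p16-CreERT2/R26-LSL-DTR, in which a Cre enzyme expressed from p16 opens a diphtheria toxin receptor cassette once tamoxifen is given. The control mice were p16-CreERT2, so they carried the same Cre without the receptor. Mice of both groups received tamoxifen (TAM) on 5 days, then after 2 weeks diphtheria toxin (DT) on 5 days, and lungs were taken after another 2 weeks, so the control group had both agents too. Each library mixed 20000 CD45- and 9000 CD45+ sorted cells. Which type 2 cells carried the receptor is not analysed here.

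Surfactant is a film of phospholipid and protein that lowers surface tension in the alveoli, and alveolar type 2 cells produce it. Its lipid and its hydrophobic proteins are packed into lamellar bodies, which are lysosome-related organelles that fuse with the apical membrane, while the collectins of surfactant also bind microbes. Used surfactant is taken up again by type 2 cells or cleared by alveolar macrophages.

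Of the 9 genes, 6 had an entry in the RefSeq promoter table for GRCm38.p6, of which the 250 bases before the start were read on the gene's own strand. NKX2-1, a transcription factor known to drive surfactant genes, binds a core that can read CTCAAG, and this motif was searched on both strands (CTTGAG on the other). The promoters of Sftpb (chr6:72304360-72304609, plus strand) and Sftpa1 (chr14:41131538-41131787, plus strand) are shown because they held it, and that of Abca3 (chr17:24351773-24352022, plus strand) because it did not and because Abca3 was the gene whose group difference was smallest. Capitals mark the motif.

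Sftpb: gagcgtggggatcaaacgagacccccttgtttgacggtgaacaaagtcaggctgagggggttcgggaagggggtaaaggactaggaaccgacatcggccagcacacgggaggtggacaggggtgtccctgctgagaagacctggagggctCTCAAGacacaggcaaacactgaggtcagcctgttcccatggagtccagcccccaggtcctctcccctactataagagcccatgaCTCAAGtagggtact

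Sftpa1: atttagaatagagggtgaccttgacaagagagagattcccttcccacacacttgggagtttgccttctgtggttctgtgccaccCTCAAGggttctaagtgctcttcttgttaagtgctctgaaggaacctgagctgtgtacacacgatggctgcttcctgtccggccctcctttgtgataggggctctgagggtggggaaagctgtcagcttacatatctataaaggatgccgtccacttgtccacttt

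Abca3: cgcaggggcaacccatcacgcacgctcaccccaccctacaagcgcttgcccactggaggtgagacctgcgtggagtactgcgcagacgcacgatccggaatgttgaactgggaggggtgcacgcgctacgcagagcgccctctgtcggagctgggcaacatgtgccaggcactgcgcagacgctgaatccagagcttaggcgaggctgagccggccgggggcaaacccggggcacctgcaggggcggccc

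The Sftpb promoter held 2 matches, starting 100 and 15 bases before the start, and the Sftpa1 promoter held 1 match, 166 bases before it. Of 32851 promoter windows of the same length, 13.3% held at least 1 match and 0.998% held 2 or more. These are matches of letters and not measured binding, and any link to the group differences was not tested. In type 2 cells, Lpcat1 and Slc34a2, also without a match, were higher in p16-DTR without overlap between the groups. Sftpa1, with a match, overlapped. Lamp3, Lpcat1 and Slc34a2 had an entry and no match in this window, and Sftpc, Sftpd and Napsa had no entry. The starts are those of RefSeq. Those of Abca3, Lamp3, Lpcat1, Sftpa1 and Slc34a2 lie inside the GENCODE spans given below, that of Slc34a2 farthest, so these windows reach into the spans.

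The gate took 114, 140 and 130 cells from p16-DTR replicates 1, 2 and 3, and 146, 172 and 194 from control replicates 1, 2 and 3. Together these were 896 cells, 1.05% of the retained barcodes. The share was 0.908% ± 0.0837 (SD, n = 3) in p16-DTR and 1.21% ± 0.246 (SD, n = 3) in control libraries, a difference of -0.301 percentage points (exact two-sided permutation p = 0.2, where 0.1 is the smallest that 3 against 3 allows). The groups overlapped, because control replicate 1 lay within the p16-DTR range.

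The gated cells carried the defining RNAs of type 2 cells. They held a median of 7265 Sftpc UMIs, 78 Lamp3 UMIs and 132 Slc34a2 UMIs, and 97.1% had an Etv5 UMI. At the edge of the gate, 7 barcodes with exactly 2 Lamp3 UMIs had a median of 11 Sftpc UMIs. Just outside it, 44 barcodes with 1 Lamp3 UMI had a median of 3, and 161 barcodes that lacked Slc34a2 had a median of 1, of which 42.2% met the B cell gate. A gate that used none of the 9 genes (Etv5, Cxcl15 and Hc) took 861 cells, and 98.5% of them were in the first gate. Because Lamp3 and Slc34a2 define the first gate, their levels inside it are a description.

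Library totals ran from 254200305 to 344421685 UMIs, and the gated cells had median depths of 45533.5 to 46723.5 UMIs in p16-DTR and 42956.5 to 44867.5 in control libraries, which did not overlap, and median mitochondrial shares of 3.31% to 3.99%. Pairs of libraries shared 55 to 90 cell barcode sequences among their filtered barcodes. Of the type 2 marker list, 12 of 13 genes were in the features and none was at 0; its summed level was 42471 to 47786 CPM (UMIs per 1000000 UMIs of the gated cells of a library) in p16-DTR and 39853 to 45452 in control libraries. Summed markers of type 1, transitional, secretory, ciliated, endothelial, immune and mesenchymal cells also overlapped between the groups, and no gene on these lists was at 0 in all 6 libraries, though Cldn4 was at 0 in 3 of them, Bpifa1 in 2, and Cd3e and C1qa in 1 each. Single markers of other cells that were lower in p16-DTR without overlap were Scgb3a2 of secretory cells (0.804, 1.19 and 1.08 against 3.59, 10.9 and 56.3), Itgb6 of transitional cells (13.5, 17.04 and 18.0 against 26.2, 26.5 and 26.8) and Pdpn of type 1 cells (0.804, 2.56 and 2.15 against 2.87, 3.72 and 3.63). Of all genes tested in the gated cells, 13.3% were lower without overlap. The rest of these lists did not all lie lower. Log2 fold changes were above 0 for 5 of 8 type 1, 3 of 4 transitional and 0 of 3 secretory markers tested. The most abundant marker of another cell type was Scgb1a1 of secretory cells, at 3203 CPM, with a secretory sum of 1508 to 4949 in p16-DTR and 2098 to 5866 in control libraries. Of the gated cells, 10.6% also met the type 1 gate, and the 9 genes stood there at median ratios of 0.951 (Sftpa1) to 1.09 (Lamp3) of the level in the other gated cells. With the 122 gated barcodes that met any other gate left out, all 9 log2 fold changes were above 0, their median was 0.18 (0.16 with them) and Sftpc was at 0.24 (0.21 with them). The part of Scgb3a2, Itgb6 and Pdpn RNA in the values below was not tested.

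The sum of the 9 genes, of which Sftpc made up 76.9% to 78.6%, was higher in type 2 cells of the p16-DTR libraries. It was 21.9%, 20.4% and 21.0% of UMIs in p16-DTR replicates 1, 2 and 3 and 19.3%, 18.7% and 19.4% in the controls. All 3 p16-DTR libraries lay above all 3 controls, and the means were 21.1% ± 0.795 and 19.1% ± 0.398 (SD, n = 3 each). Sftpc gave 1.62 of the 1.97 percentage points between them. The other 8 genes summed to 4.69%, 4.50% and 4.73% in p16-DTR and 4.47%, 4.19% and 4.22% in control libraries, which did not overlap. These 8 include Lamp3 and Slc34a2, which define the gate. In the gate by Etv5, Cxcl15 and Hc the sum of the 8 overlapped, with control replicate 1 above p16-DTR replicate 2. No single gene passed the test of the group difference: with the edgeR quasi-likelihood test and Benjamini-Hochberg adjustment over 11877 genes, 0 of the 9 were called, against 0 of all genes (percent called 0). At an unadjusted p under 0.05, 5 of the 9 stood higher in p16-DTR (4 of the 7 that the gate does not use, without Lamp3 and Slc34a2), beside 5.51% of all genes in that direction, and DESeq2 called 89 genes (0.749%) and none of the 9. The count of 5 of 9 was 1 without p16-DTR replicate 3, 2 without control replicate 2, 2 without control replicate 3, 1 with a gate by Etv5, Cxcl15 and Hc, and 2 when scaled by library size, with equal numbers of cells or with no filter on low counts. It was 6 without p16-DTR replicate 2, without barcodes that met another gate and with DESeq2. It was 4 without control replicate 1 and with a stricter cell filter, and 5 under the other alternative settings.

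Sftpc encodes surfactant protein C, a small hydrophobic protein made by type 2 cells (chr14:70520949-70524081, minus strand, GRCm38). It reached 172542, 158587 and 163021 CPM in the p16-DTR libraries and 148545, 144946 and 151965 in the controls. Every p16-DTR library was above every control. The log2 fold change was 0.21 (SE 0.06, edgeR adjusted p = 0.266, unadjusted p = 0.00744), a fold of 1.15 with a 95% interval of 1.05 to 1.27.

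Sftpb encodes surfactant protein B, the other hydrophobic protein, without which lamellar bodies do not form properly (chr6:72304610-72314371). Its levels were 10093, 10210 and 10860 CPM in p16-DTR and 9705, 9572 and 9516 in control libraries. The groups did not overlap, and the log2 fold change was 0.17 (SE 0.06, edgeR adjusted p = 0.309). Napsa encodes napsin A, an aspartic protease that processes the precursors of both proteins (chr7:44572380-44586862). It stood at 1919, 1976 and 2024 CPM in p16-DTR and 1866, 1785 and 1761 in control libraries. Again the groups did not overlap, with a log2 fold change of 0.19 (SE 0.06, edgeR adjusted p = 0.309).

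The collectins Sftpa1 and Sftpd encode surfactant proteins A and D, which bind sugars on microbes. Both lie on chromosome 14 (chr14:41131782-41136452 and chr14:41172214-41185149), 35761 bases apart. Sftpa1 reached 23467, 21720 and 22829 CPM in p16-DTR and 21955, 19574 and 20331 in control libraries. Control replicate 1 lay above p16-DTR replicate 2, so the groups overlapped, and the log2 fold change was 0.19 (SE 0.07, edgeR adjusted p = 0.354). Sftpd ranged from 4248 to 4658 in p16-DTR and from 4011 to 4604 in control libraries, which overlapped, with a log2 fold change of 0.11 (SE 0.08, edgeR adjusted p = 0.619).

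Abca3 and Lamp3, both of the lamellar body, had the smallest log2 fold changes of the 9. Abca3 encodes the transporter that loads phospholipid into lamellar bodies (chr17:24351950-24410201). It stood at 626, 633 and 662 CPM in p16-DTR and 664, 658 and 635 in control libraries, which overlapped, with a log2 fold change of 0.03 (SE 0.06, edgeR adjusted p = 0.891, 95% interval of the fold 0.924 to 1.13). Its sign depended on the scaling: the mean CPM was lower in p16-DTR (640 against 652), and the log2 fold change scaled by library size was -0.03. Lamp3, a membrane protein of lamellar bodies (chr16:19653378-19706375), ranged from 1879 to 1954 and from 1850 to 1911, a log2 difference of 0.09 (SE 0.06).

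Lpcat1 makes the disaturated phosphatidylcholine of surfactant (chr13:73467197-73516422). Its levels were 1148, 1186 and 1159 CPM in p16-DTR and 1048, 1132 and 1133 in control libraries. The groups did not overlap, with p16-DTR replicate 1 only just above the 2 higher controls, and the log2 fold change was 0.13 (SE 0.06, edgeR adjusted p = 0.479). Slc34a2, the phosphate transporter that recovers phosphate released from surfactant phospholipid (chr5:53038081-53071664), stood at 3143, 3136 and 3263 in p16-DTR and 2940, 2979 and 2951 in control libraries. These did not overlap either, and the log2 difference was 0.16 (SE 0.06).

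**Figure D1:**
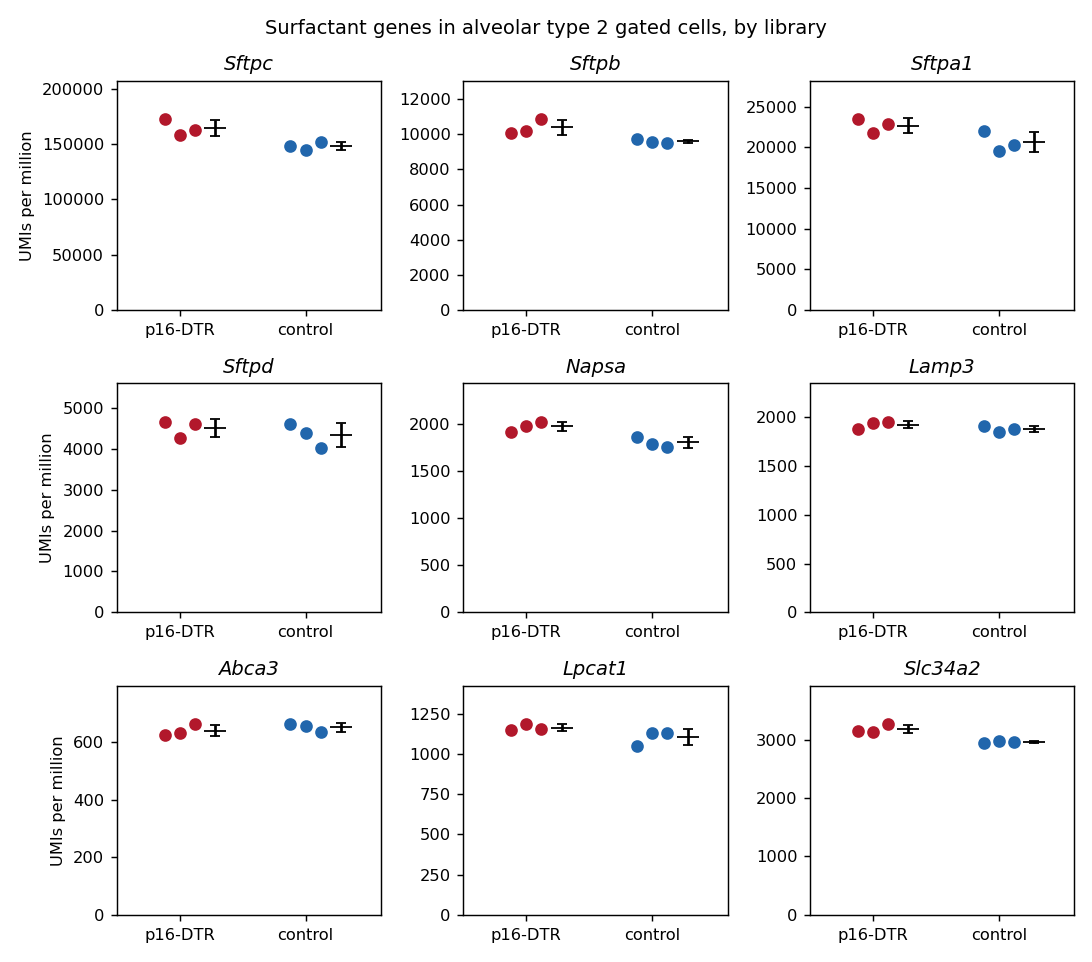
CPM of the 9 genes in alveolar type 2 gated cells, with 1 point per library (p16-DTR red, control blue) and the mean ± SD beside each group; each axis starts at 0. Sftpc, Sftpb, Napsa, Lpcat1 and Slc34a2 are higher in all 3 p16-DTR libraries than in all 3 controls, and Abca3, Lamp3, Sftpa1 and Sftpd overlap.

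In all, 5 of the 9 genes, and 4 of the 7 that the gate does not use, did not overlap between the groups and were higher in p16-DTR, against 4.62% of all genes tested (13.3% were lower without overlap) and 10.6% of the 151 genes at least as abundant as Abca3. The 9 genes are themselves among these 151. All 9 log2 fold changes were above 0 (Abca3 was not when scaled by library size), where 49.8% of all genes were. Of the 12 genes tested from the type 2 marker list, which holds none of the 9, 10 were above 0. The median of the 9 genes was 0.16, and 0.17 over the 7, beside -0.00 for all genes and 0.03 for the 151 abundant genes. Genes of 1 cell type share its composition, so these 9 values are not independent.

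The gate by Etv5, Cxcl15 and Hc gave smaller differences, and 8 of 9 were above 0 with a median of 0.10. Sftpc still did not overlap (168614, 157765 and 163765 against 151615, 147630 and 157183 CPM), with a log2 fold change of 0.14 (SE 0.06, edgeR adjusted p = 0.433). Sftpb and Slc34a2 did not overlap either, while Napsa and Lpcat1 did. How many of all genes did not overlap in this gate was not counted. At an edgeR unadjusted p under 0.05 stood 1 of the 9, beside 1246 of 11822 genes. Lamp3 was at 0.04 and Slc34a2 at 0.10 in this gate, which does not use them, and Abca3 was at -0.02. Scaling by library size alone moved the median of all genes to -0.06 and that of the 9 genes to 0.10, with Abca3 at -0.03.

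**Figure D2:**
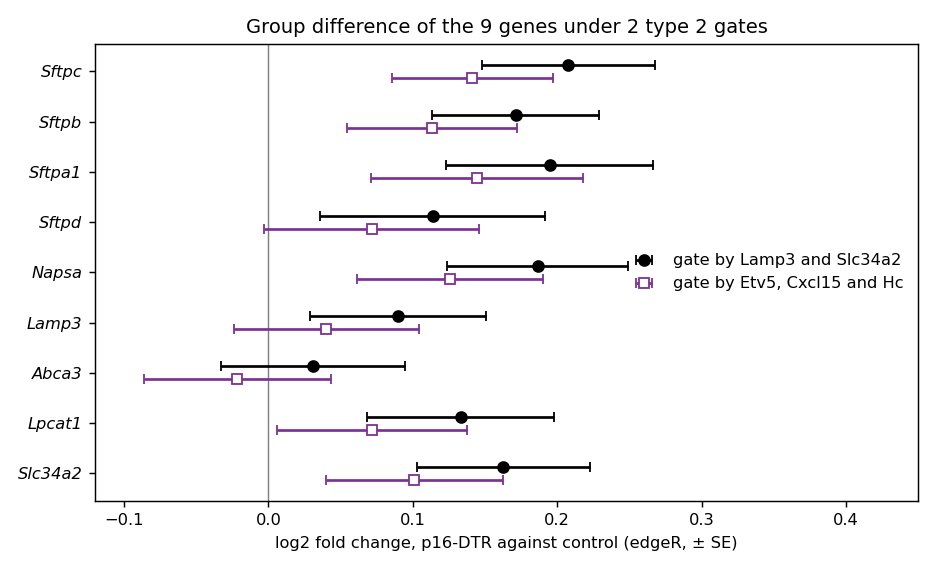
Log2 fold change of p16-DTR against control (edgeR, ± SE) for each of the 9 genes under the gate by Lamp3 and Slc34a2 (filled circles) and under the gate by Etv5, Cxcl15 and Hc (open squares). Each square lies to the left of its circle, and the square of Abca3 falls below 0 at -0.02.

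Single cells of the gate also differed in their Sftpc share between the groups. The median cell gave 18.0%, 16.4% and 16.6% of its UMIs to Sftpc in p16-DTR replicates 1, 2 and 3 and 14.8%, 14.9% and 16.04% in the controls. The lowest p16-DTR median was above the highest control median. At the 90th percentile the values were 21.7%, 20.5% and 20.4% against 19.2%, 18.9% and 19.5%, and at the 10th percentile 9.99%, 7.38% and 6.94% against 0.421%, 2.22% and 2.53%. The groups did not overlap at any of the 3 points, and the gap was widest at the 10th percentile.

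Cells with Sftpc under 5% of their UMIs, a limit chosen after the values were seen, made up 7.89%, 7.86% and 7.69% of the gated cells in p16-DTR and 17.1%, 15.1% and 13.9% in control libraries. These were 30 and 78 cells, and each control had more than every p16-DTR library (exact two-sided permutation p = 0.1, the smallest possible). At a limit of 2% the means were 5.20% ± 0.552 and 11.6% ± 3.02, and at 10% they were 13.9% ± 3.60 and 23.0% ± 1.77 (SD, n = 3 each), again without overlap.

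The 108 low-Sftpc cells differed from the other 788 in depth and RNA quality. Their median depth was 12176 UMIs against 46704.5 and their median mitochondrial share 8.64% against 3.50%. In raw UMIs, not scaled for that depth, the medians of the type 2 markers were 3 against 17 for Etv5, 13.5 against 113 for Hc and 7 against 309 for Cxcl15, and 68.5% of them passed the gate by Etv5, Cxcl15 and Hc against 98.2%. With a stricter cell filter (1000 UMIs or more, mitochondrial share no higher than 5%), the Sftpc log2 fold change was 0.23, and with each cell thinned to 10000 UMIs and shallower cells left out it was 0.24, neither of which was called.

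Other surfactant genes were also lower in the low-Sftpc cells. As ratios of the level in the other gated cells of the same library, the medians over 6 libraries were 0.140 for Sftpa1, 0.188 for Napsa, 0.216 for Sftpd, 0.277 for Sftpb, 0.323 for Lpcat1, 0.337 for Slc34a2 and 0.558 for Lamp3, each below 1 in 6 of 6 libraries. Abca3 stood apart at 0.917, below 1 in 4 of 6. Because these cells were chosen by their own Sftpc share, values without them are a description. Sftpc was then at 178789, 163507 and 168561 CPM in p16-DTR and 157094, 154399 and 161954 in control libraries. Lpcat1, with p16-DTR 1180 to 1197 and control 1094 to 1190, then overlapped.

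**Figure D3:**
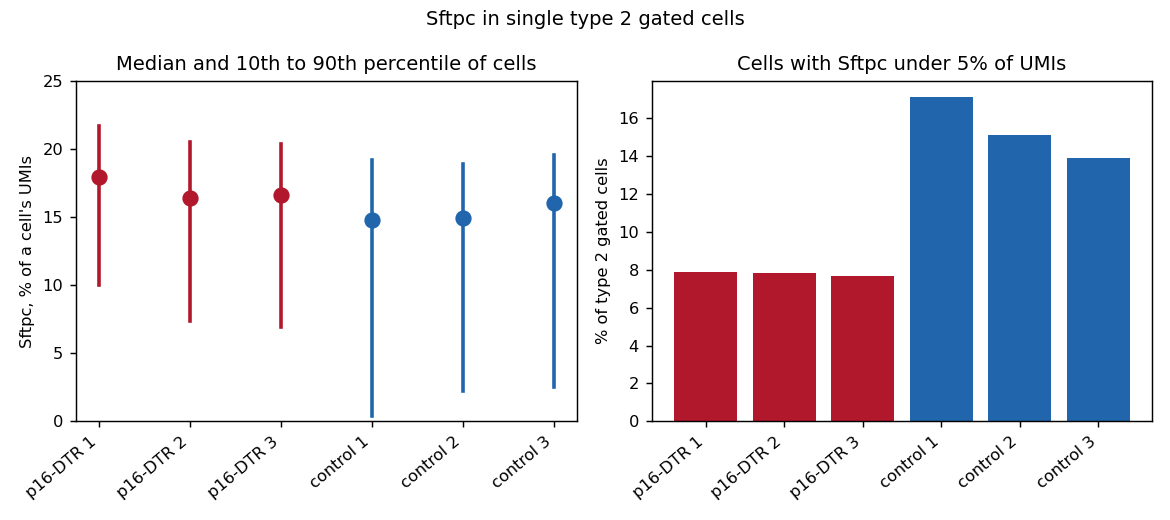
Left, Sftpc as a percentage of each cell's UMIs in type 2 gated cells of the 6 libraries (point, median cell; line, 10th to 90th percentile). Right, percentage of gated cells with Sftpc under 5% of UMIs, at 7.69% to 7.89% in p16-DTR (red) and 13.9% to 17.1% in control libraries (blue).

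With every cell at 10000 UMIs, the 2 collectins varied together most: the Spearman correlation of Sftpa1 and Sftpd over cells of a library had a median of 0.57 and ran from 0.48 to 0.72 in the 6 libraries. Sftpc with Napsa and Sftpc with Sftpb followed at medians of 0.47 and 0.46. Abca3 against Sftpa1 was below 0 in 6 of 6 libraries, at a median of -0.17. These are descriptions over cells that share a library and a fixed depth.

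A list of 55 further genes of the surfactant pathway was read from the same fit. Of 51 tested, 0 were called by edgeR, and DESeq2 called 4, beside 0.749% of all genes. At an edgeR unadjusted p under 0.05 stood 11 of the 51, a larger share than the 11.5% of all genes. The list was chosen with earlier results of these data known. Of the 51, 35 had a log2 fold change above 0 and their median was 0.09. Among 20 tested genes of fatty acid and phospholipid synthesis, 17 were above 0 with a median of 0.12. Scd1, which desaturates fatty acids, was at 2497, 3699 and 4191 CPM in p16-DTR and 1990, 2300 and 2312 in control libraries, which did not overlap (log2 fold change 0.71, SE 0.16, edgeR adjusted p = 0.198). Fasn, the fatty acid synthase, was at 415 to 505 and 343 to 391, with a log2 fold change of 0.42 (SE 0.09, edgeR adjusted p = 0.176).

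Of 9 transcription factors, 4 were above 0 and the median was -0.00. The factors with the smallest p lay lower in p16-DTR: Stat3, a cytokine-response factor, at 321 to 380 against 428 to 569 CPM (log2 fold change -0.39, edgeR adjusted p = 0.289), and Etv5, a factor of type 2 cell identity, at 347 to 383 against 396 to 480 (-0.24, edgeR adjusted p = 0.326). Of 15 genes of processing, lamellar bodies and traffic, 11 were above 0 and the median was 0.09. The 2 with the smallest p, the mucin Muc1 (log2 fold change 0.24) and the vesicle fusion protein Vamp8 (0.20), overlapped between the groups. Of 7 tested genes of uptake, sensing and clearance, 3 were above 0 and the median was -0.07. Npc2, which carries cholesterol out of lysosomes, stood at 2726 to 2988 in p16-DTR and 2438 to 2506 in control libraries (log2 fold change 0.28, edgeR adjusted p = 0.176). Prdx6, a peroxiredoxin with phospholipase activity, had the same log2 difference of 0.28 without overlap.

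The genes whose pattern over the 19 gated types was most like the mean of the 9 were Mlc1 (Pearson r = 0.96), Tinag (0.94), Rbpjl (0.93), Prmt8 (0.92), Gm39094 (0.92), Cxcl15 (0.91), Hc (0.91) and S100g (0.91), among 1441 genes at 100 or more CPM in type 2 cells. The r values describe 19 types that share libraries. Of these 8 genes, Mlc1 was higher without overlap in p16-DTR (log2 fold change 0.21), Rbpjl lower without overlap (-0.15), and the others overlapped. The log2 fold changes of those were 0.29 for S100g, 0.23 for Hc, 0.19 for Cxcl15, 0.07 for Gm39094, 0.01 for Prmt8 and -0.14 for Tinag, so 3 of the 8 genes lay at or above the 0.21 of Sftpc. Of the 9 genes themselves, Sftpc was closest to the mean at 0.97, and Napsa was farthest at 0.46, followed by Lpcat1 and Abca3 at 0.74 each.

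In the other gated types no group difference of the 9 genes was called by edgeR with group as the only term. In 11 types with at least 50 cells per library, 81 tests could be made, 0 were called, 5 had an unadjusted p under 0.05 (14.3% of all gene tests did) and 37 were above 0, beside 799 calls in 137921 gene tests (0.579%). By type, edgeR called 0% of genes in neutrophils and pericytes, 0.00782% in B cells, 0.00824% in classical monocytes, 0.0171% in fibroblasts, 0.0665% in ciliated cells, 0.23% in lymphatic endothelium, 0.352% in T cells, 0.858% in aerocytes, 1.21% in natural killer cells and 3.07% in general capillary cells. The test of whether the type 2 difference differed from that of T and B cells of the same libraries called 0 of 15588 genes by edgeR (percent called 0; DESeq2 called 134, 0.86%, and none of the 9). Of the 7 genes that the type 2 gate does not use, all were above 0 and 2 had an unadjusted p under 0.05, beside 8.75% of genes in either direction. They were Lpcat1 (log2 difference 0.31, SE 0.10, edgeR adjusted p = 0.414) and Napsa (0.22, SE 0.09). The lymphocyte sum pools T and B cells, whose mix moved with the group: B and T cells numbered 582 and 840, 771 and 1245, and 892 and 1466 in p16-DTR replicates 1 to 3, and 865 and 699, 775 and 682, and 911 and 1196 in control replicates 1 to 3. Both genes stood higher in B than in T cells (456 against 10.5 CPM for Napsa, 62.0 against 21.9 for Lpcat1). In B cells alone the Napsa log2 fold change, 0.27, was larger than the 0.19 of type 2 cells, while in the pooled lymphocytes its mean was 199 CPM in p16-DTR and 206 in control libraries. The part of the mix in these differences was not tested. Of the UMIs expected from Sftpc at the type 2 ratio (described below), T cells held 0.872 for Sftpa1, 0.857 for Sftpb and 0.794 for Sftpd. B cells held 0.859, 0.869 and 0.714. The source of this RNA in lymphocytes was not tested. Lamp3 (0.44, SE 0.19) and Slc34a2 (0.46) define the type 2 gate, so their differences are a description. Barcodes that met this gate were also left out of the lymphocytes (5 met it and the T cell gate). Over the 9 genes these values moved with single libraries: 6 were above 0 without control replicate 3, and their median of 0.22 was 0.15 without that library and 0.46 without control replicate 1. The count of 3 of 9 at an unadjusted p under 0.05 was 6 without control replicate 1, 2 without control replicate 3 and 1 without control replicate 2, p16-DTR replicate 1 or p16-DTR replicate 3. With equal numbers of cells per library, 7 were above 0 and 0 had an unadjusted p under 0.05. The same count was 1 by library size, with thinned cells or with the gate by Etv5, Cxcl15 and Hc, and 5 with doublets kept.

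Sftpc was found at a low and like level in the 11 other types that were fitted. There its mean ran from 61.6 CPM in classical monocytes to 108 in neutrophils, and the type 2 level was 1444 to 2543 times as high. Control replicate 3 was the highest library in 11 of 11 types and control replicate 1 the lowest in 10 of 11, so the groups overlapped in all 11. In general capillary cells, for example, Sftpc was at 80.4, 83.1 and 80.6 in p16-DTR and 56.6, 84.9 and 121 in control libraries. The spread in this background was wider among controls than in p16-DTR libraries.

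Had the RNA of the 9 genes the proportions of the type 2 sum of the same library, each gene would stand to Sftpc as it does there. The UMIs found were therefore divided by those expected from Sftpc on that ratio. Within the type 2 gate the proportions varied. Abca3 and Sftpc stood at 581 and 13784 CPM in the low-Sftpc cells, which were chosen by Sftpc, and at 650 and 163447 in the others. The source of the RNA outside type 2 cells was not tested. Sftpa1 was at 0.817 to 1.01 of the expected number over the 11 types and Slc34a2 at 0.643 to 0.898. Sftpb ran from 0.753 to 1.74, Sftpd from 0.306 to 2.89 and Lamp3 from 0.300 to 4.04. The ciliated gate held the highest ratio for Sftpb and Sftpd, and the B cell gate for Lamp3, where 347 UMIs gave 4.36 CPM ± 1.08 (SD, n = 6).

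Abca3, Lpcat1 and Napsa stood above the expected number in 11 of 11 types. Abca3 was at 7.94 times the expected number in natural killer cells and 282 times in ciliated cells (95% Poisson interval 271 to 293, for counting error only). Lpcat1 ran from 7.34 in neutrophils to 123 in general capillary cells, and Napsa from 1.63 in aerocytes to 739 in classical monocytes. The type 2 gate held 97.4% to 98.1% of the Sftpc UMIs of all retained cells in a library, but only 24.2% to 36.9% of the Napsa, 24.6% to 32.0% of the Abca3 and 35.5% to 45.9% of the Lpcat1 UMIs.

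**Figure D4:**
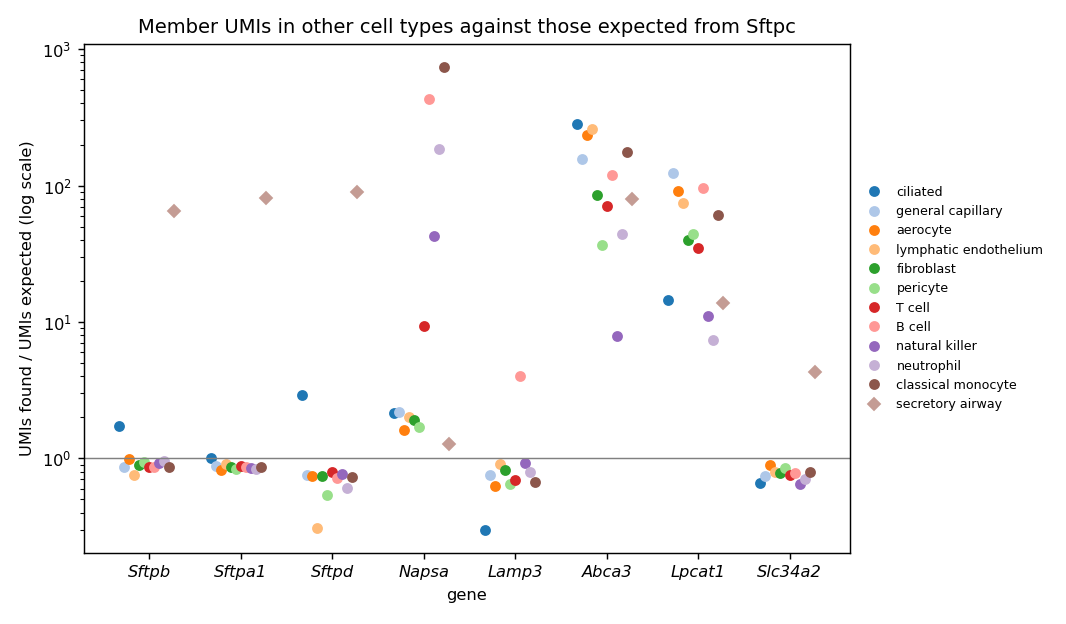
UMIs found divided by UMIs expected from Sftpc at the type 2 ratio (log scale) for 8 genes, with 1 point per gated type and the secretory airway gate as diamonds; the secretory gate had 0 Lamp3 UMIs and has no point there. Sftpb, Sftpa1, Sftpd, Lamp3 and Slc34a2 lie below 1 in most types, whereas Abca3 and Lpcat1 lie above 7 in all 11.

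Outside type 2 cells, Napsa had its highest levels in immune cells. Over 6 libraries it stood at 537 ± 31.1 CPM (SD) in classical monocytes, 456 ± 44.9 in B cells, 380 ± 41.9 in type 1 conventional dendritic cells, 289 ± 97.9 in mature dendritic cells and 233 ± 10.6 in neutrophils. In this order, the ranges over libraries of each type and the next overlapped. Type 2 cells, at 1889 ± 105, were 3.52 times as high as classical monocytes.

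Napsa in B cells was 472, 515 and 488 CPM in p16-DTR and 390, 431 and 439 in control libraries. The groups did not overlap, as for 6.16% of all B cell genes in that direction. Its log2 fold change was 0.27 (SE 0.07, edgeR adjusted p = 0.226, with 0.00782% of genes called), and DESeq2 called it (adjusted p = 0.00713, with 1.27% of genes called). In T cells Napsa stood far lower, at 9.39, 5.64 and 4.83 in p16-DTR and 20.5, 9.37 and 13.6 in control libraries. These overlapped narrowly, and the log2 fold change of -1.15 was not called by edgeR (adjusted p = 0.188, with 0.352% of genes called) but was by DESeq2 (adjusted p = 0.0245, with 3.42% of genes called) and by the edgeR fit with the replicate number as a block (adjusted p = 0.0349, with 1.9% of genes called).

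Abca3 outside type 2 cells was highest in lymphatic endothelium, at 112 ± 23.5 CPM (SD, n = 6), followed by ciliated cells at 91.4 ± 2.04, type 1 cells at 82.6 ± 10.1 and aerocytes, the capillary cells that face the alveolar gas, at 71.5 ± 4.23. Each of these overlapped with the next over libraries. Lpcat1 was highest in type 1 cells at 133 ± 22.5, type 1 conventional dendritic cells at 123 ± 13.6 and mature dendritic cells at 113 ± 31.5, followed by general capillary cells at 77.0 ± 5.80, and each again overlapped with the next. In general capillary cells Lpcat1 was 75.6, 72.6 and 69.5 in p16-DTR and 85.9, 78.0 and 80.4 in control libraries, which did not overlap (log2 fold change -0.12, edgeR adjusted p = 0.186, where 3.07% of genes were called). In natural killer cells it lay the other way, at 9.48, 7.92 and 12.03 in p16-DTR and 3.35, 2.54 and 6.05 in control libraries, again without overlap (log2 fold change 1.10, SE 0.36, edgeR adjusted p = 0.235, where 1.21% of genes were called). How many of all genes did not overlap in these types was not counted. Both Lpcat1 differences had an edgeR unadjusted p under 0.05. So did 4020 of 16084 genes in general capillary cells and 1083 of 9696 in natural killer cells.

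**Figure D5:**
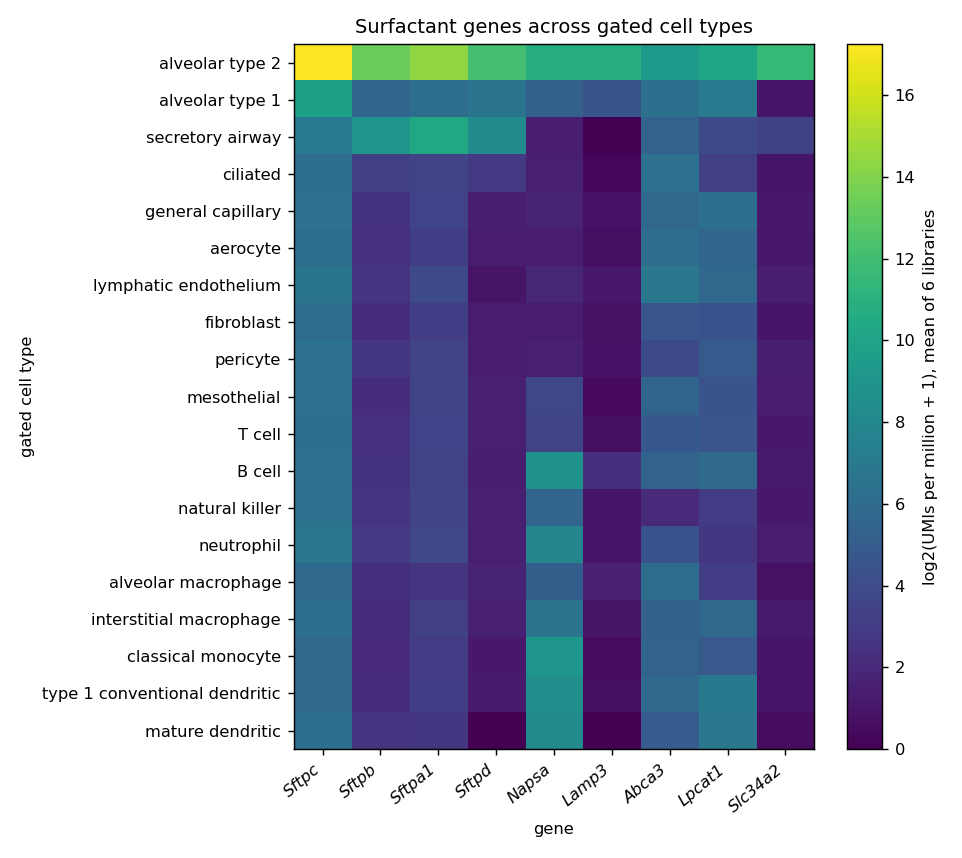
Level of the 9 genes in 19 gated cell types, as log2(CPM + 1) of the mean over 6 libraries (colour scale). The type 2 row is highest for all 9 genes, Sftpa1, Sftpb and Sftpd are also raised in the secretory airway row, and Napsa in B cells, monocytes, dendritic cells and neutrophils.

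The secretory airway gate held 75 cells, too few for a fit. In them Sftpa1 was at 1232 ± 543 CPM (SD, n = 6), Sftpb at 540 ± 349 and Sftpd at 300.02 ± 145, the highest of any type other than type 2. Their UMIs were 80.5, 65.3 and 89.2 times those expected from Sftpc, above 1 in 6 of 6 libraries for each. Sftpc stood at 132 ± 68.4, and Lamp3 had 0 UMIs, which allows a level of up to 1.44 CPM (3 counts of the total, counting error only). Barcodes that also met the type 2 gate, which uses Lamp3, had been left out of this gate (3 barcodes met both), so its Lamp3 level was partly set by the gating.

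The type 1 gate held 395 cells, and 1 library stood apart there. Sftpc was at 4198 CPM in p16-DTR replicate 2, against 66.7 to 819 in the other 5 libraries, and Lamp3 was at 116 against 0.694 to 3.50. In that library 1 of 40 gated barcodes held 74.4% of the Sftpc UMIs and 97.2% of the Lamp3 UMIs, with no Slc34a2 UMI, which kept it out of the type 2 gate, and without it Sftpc was at 1148 CPM. In control replicate 3, the next highest at 819, 1 barcode held 70.8% of the Sftpc UMIs and no Lamp3 UMI, and without it Sftpc was at 247 CPM. Lpcat1 and Abca3 in this gate did not follow Sftpc, at 89.0 and 85.7 in p16-DTR replicate 2 and 136 to 154 and 66.8 to 95.9 in the others.

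In the mature dendritic gate Lamp3, also known as DC-LAMP from human dendritic cells, had 0 UMIs in 58 cells of the 6 libraries, and Napsa and Lpcat1 in the same cells stood at 289 and 113 CPM. Over all retained cells, Sftpc was at 3501, 3653 and 3510 CPM in p16-DTR and 2782, 4350 and 4484 in control libraries. The groups overlapped, with control replicate 1 lowest and control replicates 2 and 3 highest. Control replicate 1 also had the smallest type 2 share among controls, 0.931% against 1.40% and 1.30%. Of the 9 genes only Napsa did not overlap over all retained cells, at 149 to 159 in p16-DTR and 116 to 144 in control libraries. How many of all genes did not overlap there was not counted. Classical monocytes, highest in Napsa outside type 2 cells, numbered 576, 515 and 532 in p16-DTR and 405, 456 and 378 in control libraries. B cells, the next highest, numbered 582, 771 and 892 in p16-DTR and 865, 775 and 911 in control libraries. These are counts and not shares. Retained barcodes numbered 13818, 14108 and 14326 in p16-DTR and 15682, 12298 and 14949 in control libraries, fewest in control replicate 2. The part of the cell mix in the Napsa values was not tested.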

How the data were processed

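Per the labels, libraries were made with the GEM-X 3' kit of 10x Genomics. The authors deposited raw UMI counts per gene and barcode, without normalization. Per the file headers they are the output of Cell Ranger 8.0.1. The submitters' processing notes name the build mm10, and the annotation release is not given in the sources used here. Gene positions came from the GENCODE annotation of GRCm38.

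Barcodes were kept if they had 300 genes or more, 500 UMIs or more and a mitochondrial share no higher than 15%. Predicted doublets were scored against 2 simulated doublets per cell (30 components, 2000 variable genes, 30 neighbours) and left out at 0.4% per 1000 barcodes, and 11.3% of the type 2 gated barcodes were predicted doublets. A barcode meeting several gates was left out of the types other than type 2. UMI counts were summed per library and type. Levels (CPM) are UMIs per 1000000 UMIs of that sum.

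Sums were tested with the edgeR 4.0.16 quasi-likelihood test (filterByExpr, TMM, Benjamini-Hochberg over all genes, threshold 0.05) in R 4.3.3, with group as the only term. The type 2 against lymphocyte test used library, type and type by group. DESeq2 1.42.0 was an alternative. Python 3.11.15 with scipy 1.17.1 was used elsewhere. Tested on simulated type 2 sums of 11877 genes, the edgeR step recovered 88% of genes changed by 1 and 38% of those changed by 0.5 on the log2 scale, with 11 false calls.

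Each mouse gave 1 library, so differences between mice cannot be told apart from those of handling, library preparation or the sampling of cells. Replicates of a group differed beyond counting noise (chi-square per degree of freedom 5.28 to 6.44). The members and lists were chosen with earlier results of these data known. All 9 members are named, with the 2 pathway genes per role of smallest p and the 8 genes most like the members. Alternatives were RLE size factors, library size, TMM without the 9 genes, DESeq2, a block for the replicate number, genes of low counts kept, leaving out each library, a stricter cell filter, doublets kept, barcodes meeting another gate left out, 2 other type 2 gates, equal numbers of cells and thinned cells.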

Additional observations from a re-analysis of the deposited data

How the results depend on the processing

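No alternative called any of the 9 genes in type 2 cells or in the type 2 against lymphocyte test. The number of all type 2 genes called moved from 0 to 8 with the stricter cell filter, 14 without barcodes that met another gate, 6 with thinned cells, 3 with equal numbers of cells, 12 with the stricter gate, 11 by library size, 80 with no filter on low counts, 89 with DESeq2, and 0 to 3 with 1 library left out (2 without control replicate 1 and 3 without control replicate 2). Of 19 alternatives, 16 kept Abca3 above 0; it was -0.0269 by library size, -0.0215 with the gate by Etv5, Cxcl15 and Hc and -0.00070 with thinned cells, and the cause was not tested. The other 8 genes stayed above 0 in all 19, from 0.03 (Lamp3, library size) to 0.25 (Sftpc, without p16-DTR replicate 2). Sftpc ran from 0.14 to 0.25, with adjusted p of 0.176 (DESeq2) to 0.550. In other types DESeq2 called 2 tests (Napsa in B and T cells). Of the pathway list DESeq2 called 4 and the fit with no filter 1. The share of type 2 cells stayed lower in p16-DTR under each alternative run for it.

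With the replicate number as a block, 10 type 2 genes were called and none of the 9, and in other types 1 test (Napsa in T cells, adjusted p = 0.0349). The correlations of same-numbered libraries were -0.19, 0.24 and 0.23, so the numbers were not taken to pair the libraries, which does not exclude that some share a source. In type 2 cells each of the 9 genes was read from 3114 (Abca3) or more UMIs per library.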
